A study of Mus musculus with 2 samples.

Results

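The clustered protocadherin window covered chromosome 18 from 37080001 to 38010000 (mm9, 1-based), or 930 of the 1 kb bins into which the genome was divided. The bins were chosen by position, with earlier results of these data known. Over chromosomes 1 to 19 and X, 2299806 bins held a read in either library, and 852 of these lay in the window. It was compared with 1 Mb on each side, from 36080001 to 37080000 (the proximal flank) and from 38010001 to 39010000 (the distal flank). Mouse embryonic stem cells, pluripotent cells of the early embryo, had been grown with the cytokine LIF and no feeder layer. For ChIP-seq, crosslinked and sonicated chromatin was precipitated with a home-made rabbit antibody raised against the mouse histone variant H2ABbd. For MeDIP-seq, sonicated DNA was denatured and precipitated with a mouse antibody (clone 33D3) that binds 5-methylcytosine. No genotype, strain or treatment differed between them, and no input library was used here. Each group had 1 library, so no difference between them has a replicate check and no test across conditions was made.

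Clustered protocadherins are adhesion molecules of the cell surface, best known in neurons, where each cell uses its own combination of them to tell its own processes from those of other cells. In the alpha and gamma clusters each variable exon has its own promoter and is spliced to constant exons shared by the cluster, whereas the beta genes are single-exon genes. The variable exons are rich in CpG, most of their promoters carry an element bound by CTCF, and DNA methylation of these promoters in the early embryo is known to bear on which of them neurons later use. H2ABbd is a short variant of histone H2A that wraps less DNA in the nucleosome and is best known from the testis.

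RefSeq (GRCm38.p6) lists 58 clustered protocadherin genes on this chromosome: 14 of the alpha cluster, Pcdha1 to Pcdha12 followed by Pcdhac1 and Pcdhac2, then 22 of the beta cluster, Pcdhb1 to Pcdhb22, and 22 of the gamma cluster, Pcdhga1 to Pcdhgc5. Slc25a2 and Taf7 lie between the last beta and the first gamma gene, Zmat2 precedes the array and Diaph1 follows it. This table is on another build than the reads and served for names and order only, so no bin below is tied to a gene, exon or promoter. On mm9 the alpha cluster was taken as 37090001 to 37350000, beta as 37420001 to 37700000 and gamma as 37810001 to 38000000. The borders are approximate, and those of beta and gamma were set by hand. The DNA between the clusters is called the alpha-beta and the beta-gamma spacer.

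A distinct position is a 5′ end on a given strand. There were 1397289 of them among the 3503839 reads of the library labelled H2ABbd, and 8056333 among the 9266471 of the library labelled 5mC. Values below count each distinct position as 1 read. File names and sample labels disagree on which library is which. The labels were followed here, and all directions given depend on them. In the window 867 reads of the library labelled H2ABbd lay at 701 distinct positions, and 19.1% repeated a position (exact Clopper-Pearson 95% interval 16.6 to 21.9%), close to the 20.5% of the flanks (18.7 to 22.5%). For the library labelled 5mC, 3230 distinct reads lay in the window and 4.21% of its reads were repeats (3.56 to 4.94%). In 78 bins of the window, 8.39% (6.69 to 10.4%), neither library had a read, against 2.35% of the flanks (1.73 to 3.11%). These bins were left out of all means. Intervals throughout are 95% and cover counting error only, since each group had 1 library. Amplified reads carry no molecular identifiers, which is a further limit of the counts.

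The alpha cluster was denser in the library labelled H2ABbd than the DNA around it, while beta and gamma stood near the level of the flanks. Alpha had 1.19 distinct reads per bin (Poisson interval 1.05 to 1.33), beta 0.717 (0.615 to 0.83), gamma 0.766 (0.645 to 0.904) and the flanks 0.727 (0.69 to 0.766). Relative to the flanks these are 1.63 for alpha (exact interval 1.43 to 1.85), 0.986 for beta (0.838 to 1.15) and 1.05 for gamma (0.88 to 1.25). The flanks themselves lay at 1.40 times the mean of chromosome 18 (1.33 to 1.47). Over that mean alpha stood at 2.28 (2.02 to 2.56), beta at 1.38 (1.18 to 1.60) and gamma at 1.47 (1.24 to 1.74). Alpha exceeded beta 1.65 times (1.37 to 2.01) and gamma 1.55 times (1.26 to 1.91), and beta and gamma differed by less than counting error (0.935, 0.745 to 1.18). The whole window stood at 1.13 times the flanks (1.03 to 1.24). That interval included 1 with means over all bins (1.06, 0.968 to 1.16), without the 0.1% most covered bins (1.06, 0.963 to 1.16) and with flanks of 500 kb (1.09, 0.983 to 1.21). After thinning of the deeper library (5mC) to match the depth of the other, which changes the bins that enter the means, beta stood at 1.18 of the flanks (1.01 to 1.39).

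The library labelled 5mC ordered the clusters differently, with gamma highest. It had 3.58 distinct reads per bin in alpha (3.35 to 3.83), 3.72 in beta (3.48 to 3.97), 4.93 in gamma (4.61 to 5.26) and 4.58 in the flanks (4.48 to 4.67). Alpha lay at 0.783 of the flanks (0.729 to 0.839) and beta at 0.812 (0.758 to 0.869), both below them, and gamma at 1.08 (1.00 to 1.15). In this library too the flanks lay above the mean of chromosome 18, at 1.37 times (1.34 to 1.40). Alpha stood at 1.07 of that mean (1.00 to 1.14), beta at 1.11 (1.04 to 1.19) and gamma at 1.47 (1.38 to 1.57). Gamma was thus denser than alpha (alpha over gamma 0.727, 0.661 to 0.799) and than beta (beta over gamma 0.754, 0.687 to 0.827), and alpha and beta differed by less than counting error (0.964, 0.877 to 1.06). Thinned to the depth of the other library, alpha stood at 0.935 of the flanks (0.776 to 1.12), beta at 0.984 (0.829 to 1.16) and beta over gamma at 0.827 (0.659 to 1.04), all with intervals that include 1.

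**Figure D1:**
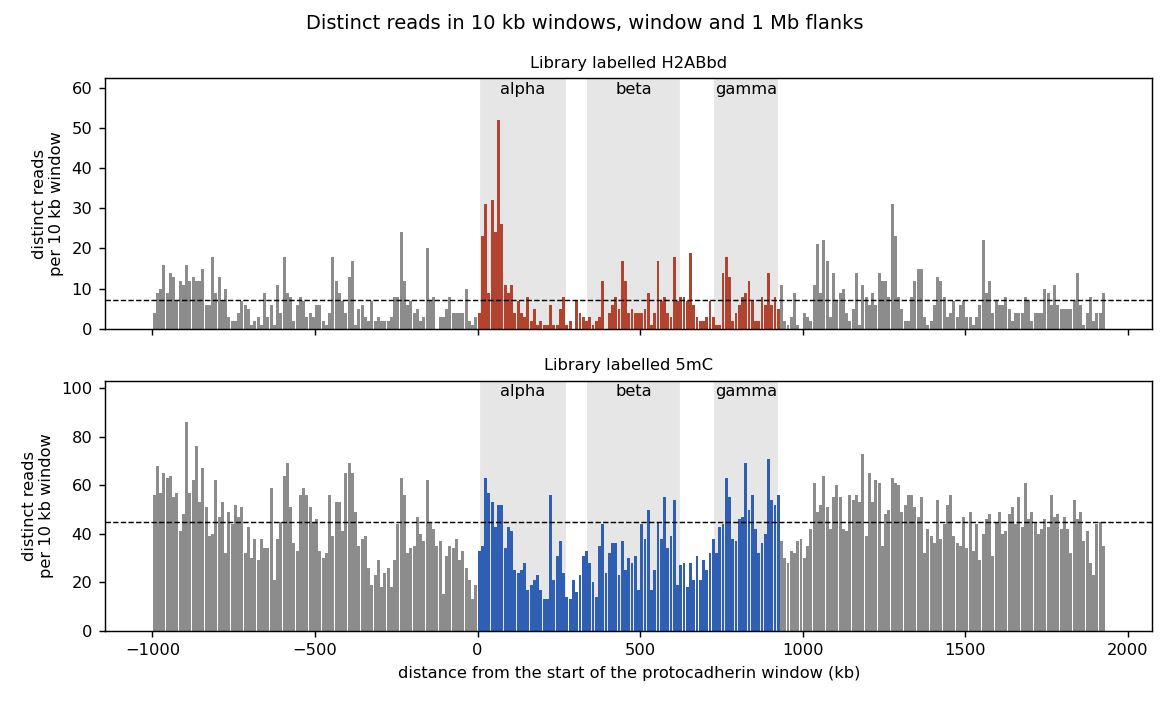
Distinct reads in 10 kb windows (y axes) against distance in kb from the start of the protocadherin window (x axis), in color for the window and in grey for the flanks. Dashed lines give the mean of the flanks. In the library labelled H2ABbd the highest window, with 52 reads, lies in the first part of alpha, and in the library labelled 5mC the highest of the protocadherin windows, with 71, lies in gamma.

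The share of its reads that the library labelled H2ABbd had in a stretch was set against the same share of the library labelled 5mC. This ratio was 1.91 in alpha (1.66 to 2.18), 1.11 in beta (0.941 to 1.31), 0.896 in gamma (0.745 to 1.07) and 0.916 in the flanks (0.866 to 0.969). It was 0.897 over all of chromosome 18. With all reads kept it was 1.05 in alpha, 0.583 in beta, 0.507 in gamma and 0.502 in the flanks, so the size of each ratio depended on counting positions once, and alpha had the highest value either way. With the labels exchanged each ratio would be its inverse, 0.524 in alpha, 0.90 in beta, 1.12 in gamma and 1.09 in the flanks, and alpha would be the lowest.

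**Figure D2:**
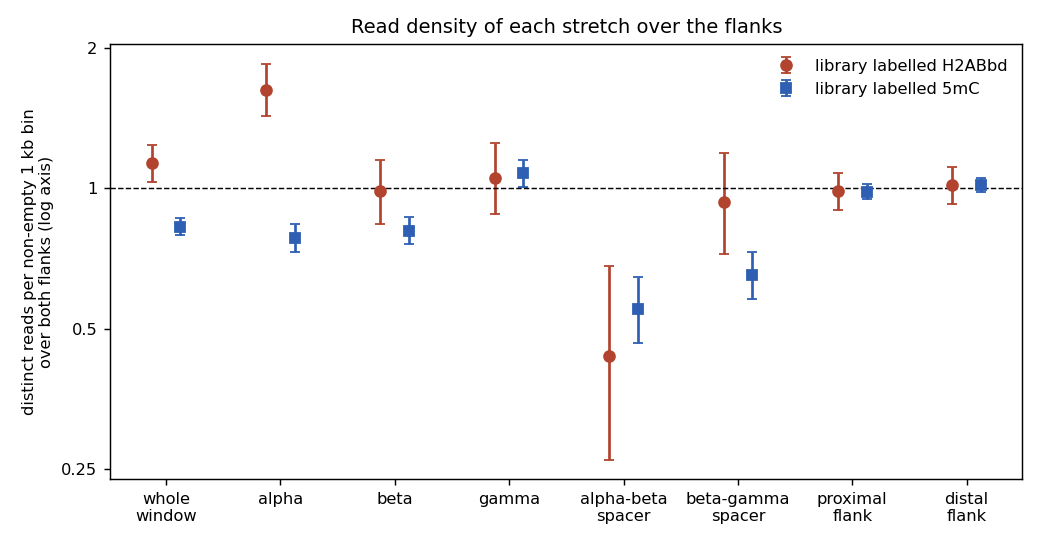
Distinct reads per non-empty 1 kb bin of each stretch over the same value of both flanks together (log axis), with exact 95% intervals for counting error. Circles are the library labelled H2ABbd and squares the library labelled 5mC. Alpha lies above the flanks in the former (1.63) and below them in the latter (0.783), and the alpha-beta spacer lies below them in both.

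The reads of the library labelled H2ABbd were unevenly spread within alpha. In 26 windows of 10 kb alpha had 11 ± 12.7 reads (mean and SD over windows, which are not replicates), from 1 to 52 with a median of 6.5, against 7.10 ± 5.22 in 200 windows of the flanks, from 0 to 31 with a median of 6. The excess of alpha is thus smaller than the spread among its own windows. The densest window, 37140001 to 37150000, held 52 reads. No flank window held as many, and of 8763 windows of chromosome 18 with reads 12 did, this one included. The first 120 kb of alpha, a border chosen after the counts were seen, held 239 of its 287 reads and the remaining 140 kb held 48. Per bin this was 2.08 (1.82 to 2.36) against 0.378 (0.279 to 0.501).

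A bin was called enriched when its count had a Benjamini-Hochberg adjusted Poisson tail of at most 0.01 over all bins and was at least 4 times the mean of its chromosome. On chromosome 18 the lowest counts called were 6 reads (H2ABbd) and 14 reads (5mC). In the library labelled H2ABbd 1.18% of all bins tested were called, as were 1.28% of the flanks (0.83 to 1.88%). In the window 27 bins were called, 3.17% (2.10 to 4.58%), or 2.48 times the share of the flanks (exact interval 1.38 to 4.45). Alpha held 18 of them, 7.44% of its bins (4.47 to 11.5%), gamma 5 (2.72%, 0.888 to 6.23%), beta 3 (1.21%, 0.251 to 3.51%) and the beta-gamma spacer 1. The share of beta was thus near the background. That of gamma was 2.12 times the share of the flanks (0.635 to 5.65), and with 5 bins its wide interval includes the background without showing that it is near. The interval of alpha lay above the background. All 18 bins of alpha lay in its first 120 kb.

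Merged where they adjoined, the 18 bins of alpha formed 12 runs of 1 or 2 kb, one after another from 37091001 to 37206000. From the proximal to the distal end they held 22, 21, 8, 21, 17, 20, 24, 16, 10, 6, 8 and 7 distinct reads. By total count the runs of the proximal side were the richer ones, except the run at 37107001, but all 6 runs of 2 kb lay on that side. Per kb the run at 37166001 lay 19.2-fold above the chromosome mean, level with the run at 37140001 and above that at 37152001 (15.4-fold). The more distal runs at 37172001, 37181001 and 37205001 lay at 11.5-, 15.4- and 13.5-fold. The densest bins of neighbouring runs lay 10, 6, 21, 7, 6, 7, 4, 14, 6, 9 and 24 kb apart, with a median of 7 kb. Within the gap of 21 kb the bin at 37121001 had 5 reads, 1 fewer than the lowest count called. The 18 bins held 62.7% of the reads of alpha, against 15.0% held by the enriched bins of the flanks. Outside enriched bins alpha had 0.478 reads per bin, beta 0.607, gamma 0.592 and the flanks 0.626. In the first 120 kb of alpha such bins had 0.608 reads, near the level of the flanks, and in the remaining 140 kb 0.378. With enriched bins left out, the ratio of alpha to the flanks therefore turned from 1.63 to 0.763 and that of the whole window from 1.13 to 0.856. Alpha over beta then became 0.788 (0.608 to 1.02) and alpha over gamma 0.807 (0.611 to 1.07). The enriched bins were picked for high counts of this same library. A fall in the stretch with most of them is given by that choice and does not show where the excess lay.

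The 3 runs of alpha with the most reads were 37147001 to 37149000, 37091001 to 37093000 and 37100001 to 37102000, the last level with the run at 37128001 at 21 reads. In the first, bins from 37145001 to 37150000 held 2, 3, 6, 18 and 2 distinct reads, a narrow peak whose 24 reads, 14 on the plus and 10 on the minus strand, lay 23.1-fold above the chromosome mean (14.8 to 34.3). The library labelled 5mC had 4, 4, 6, 7 and 4 reads in the same bins. The run at 37091001 held 22 reads, 11 on each strand (21.1-fold, 13.2 to 32), with 0 reads in the 2 bins on either side. The run at 37100001 held 21, 10 on the plus and 11 on the minus strand (20.2-fold, 12.5 to 30.8). The bin at 37135001 was the densest run per kb, with 17 reads (32.7-fold, 19 to 52.3). All 12 runs had reads on both strands, 87 of 180 on the plus strand, and 226 reads in all at those 180 positions. Single runs were less even, with 4 reads on the plus and 12 on the minus strand at 37152001, 5 and 12 at 37135001, and 1 and 7 at 37181001.

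**Figure D3:**
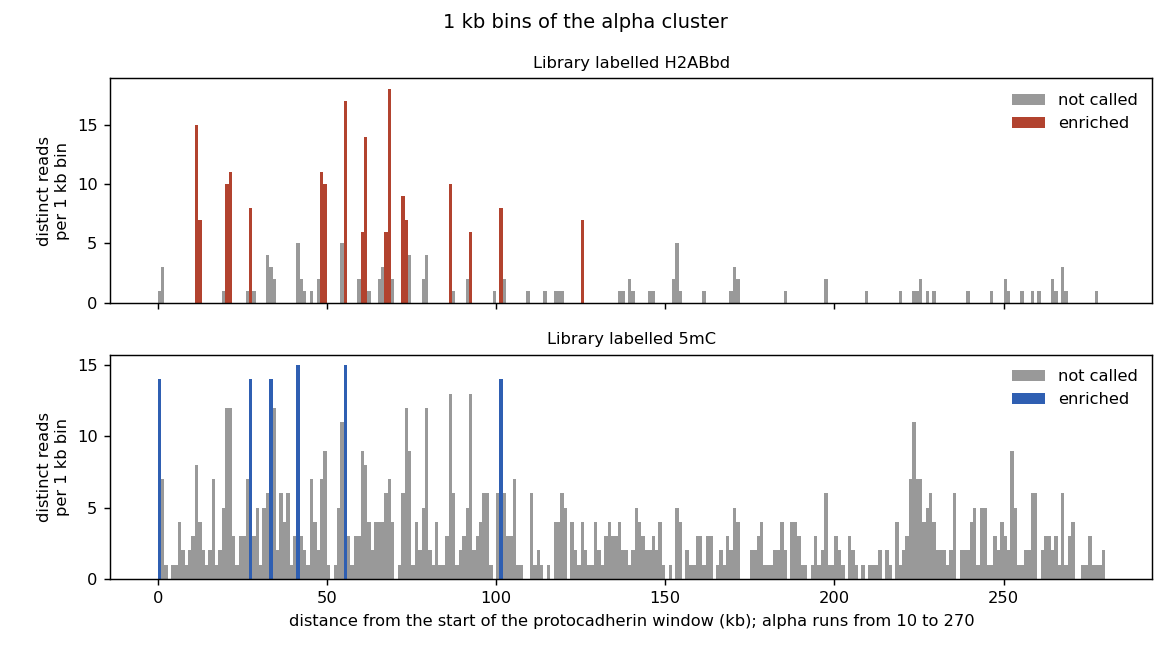
Distinct reads per 1 kb bin (y axes) over the alpha cluster against distance in kb from the start of the protocadherin window (x axis). Enriched bins are in color, other bins in grey. The 18 enriched bins of the library labelled H2ABbd stand in separate peaks in the first 120 kb of alpha, and the other 140 kb hold none in either library.

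Chains of reads drawn without bin edges were most frequent in alpha. They use the same reads as the enriched bins and are no separate support. Distinct reads of the library labelled H2ABbd at most 300 bp apart were joined, and chains of at least 6 reads were kept, settings chosen after the counts were seen. Alpha held 16 such chains, 6.15 per 100 kb, against 1.07 in beta, 3.16 in gamma, 1.35 in the flanks and 0.736 over chromosome 18. Chains of alpha were 228 to 1156 bp long with a median of 757.5 bp, and those of the flanks 47 to 890 bp with a median of 393 bp. The longest of alpha ran from 37147876 to 37149031 and held 21 reads. Of windows of 100 kb on a fixed grid over the 20 chromosomes, the one from 37100001 to 37200000 held 15 enriched bins of this library. In 89 of 25657 windows there were as many, 0.347%, this one included, and on chromosome 18 it was the only one.

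In the library labelled 5mC enriched bins were few and spread over all clusters. It had 17 in the window, 2.00% (1.17 to 3.18%), against 0.508% of all bins tested and 0.922% of the flanks (0.547 to 1.45%). Alpha held 5 (2.07%, 0.674 to 4.76%), beta 5 (2.02%, 0.66 to 4.66%) and gamma 6 (3.26%, 1.21 to 6.96%), and 1 lay at the proximal edge of the window. Over the share of the flanks this was 2.16 times for the window (1.05 to 4.45) and 3.54 for gamma (1.15 to 9.30), with lower bounds just above 1, while the intervals of alpha (2.24, 0.651 to 6.26) and beta (2.20, 0.637 to 6.14) included 1. All 17 were single bins.

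In alpha these bins lay at 37107001, 37113001, 37121001, 37135001 and 37181001 with 14, 14, 15, 15 and 14 reads, 4.19- to 4.48-fold above the chromosome mean, all just at or above the lowest count called. They fell in the same first 120 kb as the runs of the library labelled H2ABbd. There this library had 4.54 reads per bin (4.16 to 4.95), level with the flanks (0.992, 0.906 to 1.08), and in the rest of alpha 2.72 (2.44 to 3.02), which is 0.594 of the flanks (0.532 to 0.661). One window of that sparse part stood out: 37300001 to 37310000 had 56 reads of the library labelled 5mC and 6 of the other, where the windows from 37280001 to 37300000 had 13 each and 1 each.

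In beta the library labelled H2ABbd had single enriched bins at 37495001 with 6 reads, 37530001 with 10 and 37681001 with 13. The library labelled 5mC had 15 reads at 37597001, 21 at 37639001, 19 at 37646001, 17 at 37658001 and 31 at 37681001, so its calls lay in the distal part of the cluster. The bin at 37681001 was the richest of the whole window in this library (9.27-fold, 6.30 to 13.2) and was enriched in both. Its 13 reads of the library labelled H2ABbd (25-fold, 13.3 to 42.7) lay within 254 bp and 12 of them were on the minus strand, while the library labelled 5mC had 21 on the plus and 10 on the minus strand. Of the 3 clusters beta had the most bins without any read, 11.8% (8.25 to 16.2%). The alpha-beta spacer had 14.3% (7.07 to 24.7%) and chromosome 18 as a whole 12.5%. How reads of near-identical gene copies were placed is not given in the sources used here, and its part in these counts was not tested.

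In gamma 5 bins were enriched in the library labelled H2ABbd, with 11 reads at 37846001 and 6 each at 37841001, 37903001, 37913001 and 37976001. Of these 4 sat at the lowest count called. The library labelled 5mC had 6, at 37841001, 37851001, 37892001, 37903001, 37913001 and 37973001 with 15, 15, 14, 24, 16 and 16 reads. In 10 kb windows it ranged in gamma from 32 to 71 with a median of 46, against 13 to 63 with a median of 29.5 in alpha and 14 to 55 with a median of 33 in beta. Gamma thus had no window as sparse as those of the other clusters. Its highest window, 37970001 to 37980000, held 71 reads, which 3 of 200 flank windows and 79 of 8763 of chromosome 18 matched or passed.

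The alpha-beta spacer was poorer than each cluster as a whole in both libraries, but near the level of the adjoining 140 kb of alpha. Per bin the library labelled H2ABbd had 0.317 reads in the spacer (0.191 to 0.495) and 0.378 in that part of alpha (0.279 to 0.501). The library labelled 5mC had 2.52 (2.13 to 2.95) and 2.72 (2.44 to 3.02). Neither stretch held an enriched bin of either library. Relative to the flanks, the alpha-beta spacer stood at 0.436 in the library labelled H2ABbd (0.261 to 0.683). In the library labelled 5mC it stood at 0.55 (0.465 to 0.646). The beta-gamma spacer had 0.935 (0.722 to 1.19) and 0.651 (0.578 to 0.731). It held the enriched bin at 37735001, with 15 reads of the library labelled H2ABbd (28.8-fold, 16.1 to 47.6) and 2 of the library labelled 5mC (0.598-fold, 0.0724 to 2.16). This was the only run of that library in the window at which the other lay below its chromosome mean.

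Bins enriched in the library labelled H2ABbd were also rich in the library labelled 5mC. The 7 bins called in both were 37107001, 37135001 and 37181001 in alpha, 37681001 in beta, and 37841001, 37903001 and 37913001 in gamma. They are 25.9% of the 27 bins of the library labelled H2ABbd and 41.2% of the 17 of the other. Over all bins tested 0.122% were called in both, and those 2811 bins made up 10.3% of the calls of the former and 24.1% of the calls of the latter. In the flanks 1 of 25 and 1 of 18 were shared. The intervals of the window, 11.1 to 46.3% and 18.4 to 67.1%, overlap those of the flanks, 0.101 to 20.4% and 0.141 to 27.3%. At the 18 enriched bins of alpha the library labelled 5mC had 9.61 reads per bin, from 4 to 15, against 3.10 at the other bins of alpha, a ratio of 3.10 (2.61 to 3.67). All 18 lay in the first 120 kb, with 4.54 reads per bin, while the other bins include the remaining 140 kb, with 2.72. That ratio thus also takes in the difference between these 2 parts. Over the whole window the ratio was 3.09 (2.74 to 3.49). In beta it was 4.59 (3.37 to 6.12) over 3 bins, in gamma 3.13 (2.43 to 3.98) over 5 and in the flanks 1.67 (1.43 to 1.92) over 25. In the other direction, the library labelled H2ABbd had 5.59 reads at the 17 bins that the library labelled 5mC had enriched, and 0.726 at the other bins of the window, a ratio of 7.70 (6.14 to 9.57), with at least 1 read at each. In the flanks it had 1.44 at 18 such bins, 7 of them at 0, and 0.72 elsewhere, a ratio of 2.01 (1.31 to 2.95). The intervals of the window and of the flanks do not overlap in either direction.

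**Figure D4:**
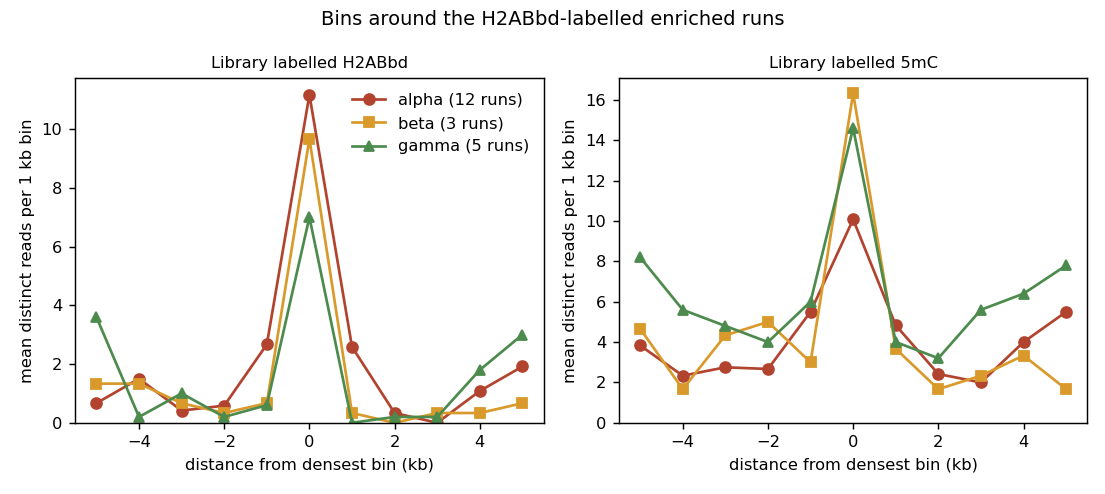
Mean distinct reads per 1 kb bin (y axes) by distance in kb from the densest bin of each enriched run of the library labelled H2ABbd (x axes), for alpha, beta and gamma. The left panel shows the library in which the runs were called, so its central peak is given by the choice. In the right panel the library labelled 5mC also peaks at the center, at 10.1 reads in alpha, 16.3 in beta and 14.6 in gamma.

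The peak of the library labelled 5mC at the runs of alpha was also narrow. Its mean was 10.1 reads at the densest bin, 5.50 and 4.83 at 1 kb to either side, and 2.67 and 2.42 at 2 kb. In bins with 6 or more reads of the library labelled 5mC, grouped by that count, alpha had more reads of the library labelled H2ABbd than the flanks. Nearly all of them lay in the first 120 kb of alpha, with 83 of 92 at 6 to 8, 25 of 26 at 9 to 11 and all 91 at 12 or more. The group of 12 or more is open, and its bins reached 15 reads of the library labelled 5mC in alpha and 20 in the flanks. In bins with 6 to 8 reads of the library labelled 5mC, alpha had 3.17 against 0.886 in the flanks (ratio 3.58, 2.82 to 4.50), and in bins with 12 or more it had 7.58 against 1.95 (3.89, 2.85 to 5.32). At 9 to 11 the ratio was 3.74 (2.35 to 5.73), over 6 bins. At 3 to 5 alpha did not differ from the flanks beyond counting error (0.968, 0.714 to 1.29), and at 0 to 2 it had fewer, 0.232 against 0.507 (0.458, 0.293 to 0.689). In beta the ratio to the flanks was 1.55 (1.05 to 2.21) at 6 to 8, 1.79 (1.14 to 2.73) at 9 to 11 and 1.82 (1.21 to 2.70) at 12 or more. In gamma it was 1.54 (1.13 to 2.06), 0.863 (0.404 to 1.64) and 1.62 (1.07 to 2.42). The intervals of alpha lie above those of beta and gamma at 6 to 8 and at 12 or more, and overlap that of beta at 9 to 11.

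**Figure D5:**
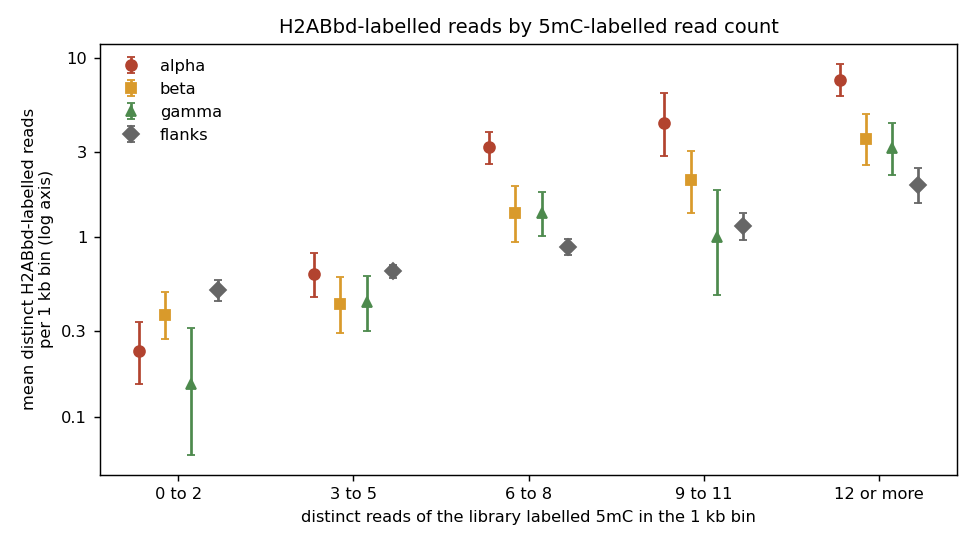
Mean distinct reads of the library labelled H2ABbd per 1 kb bin (y axis, log) in bins grouped by their reads of the library labelled 5mC (x axis), with exact Poisson 95% intervals. In alpha the mean goes from 0.232 in bins with 0 to 2 reads to 7.58 in bins with 12 or more, and in the flanks from 0.507 to 1.95.

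Over the 852 bins of the window the levels of the libraries, as log2(RPM + 0.1), correlated at Pearson r = 0.320 and Spearman rho = 0.296, where RPM is a bin's share of the distinct reads of its library, scaled to parts per 1000000. In alpha r was 0.481 over 242 bins, in gamma 0.412 over 184, in beta 0.311 over 247 and in the flanks 0.145 over 1953. In 10 kb windows r was 0.756 in alpha, 0.694 in gamma, 0.537 in beta and 0.469 in the flanks. These are descriptions: neighbouring bins share sequence, mappability and the depth of each library, and the value depends on the pseudocount and on depth. After thinning of the deeper library, r turned to -0.351 in the window and -0.418 in the flanks.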

How the data were processed

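The submitters' processing notes name FastQC and Bowtie as tools and mm9 as the build; how reads with more than 1 possible place were treated is not given in the sources used here. Each regular line of the deposited files is an aligned 42 bp read with its position and strand, and no peaks had been called. The deposited score is 255 throughout and was not used. Lines with broken separators (8 and 1) were left out. Distinct 5′ ends per strand were counted in 1 kb bins after a move of 100 bp downstream. Means leave out bins that both libraries miss. Ratios carry exact conditional intervals, counts exact Poisson intervals and shares exact Clopper-Pearson intervals. The Poisson tail is a filter within 1 library. Bins vary more than Poisson counts do, so intervals are too narrow for the spread along the genome.

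The members, borders and tests were chosen with earlier results of these data known. Regions named are the bins called in both libraries, the 3 richest runs per library and cluster, and the highest and lowest 10 kb windows; other enriched bins are listed too. Calling and intervals were run on simulated Poisson counts with an even mean. Real bins vary more than that, so this run bears on the code and not on these data. In all, 20 alternatives were set in advance and 1 was added after the data were seen. Python 3.11.15, numpy 2.4.6, scipy 1.17.1, pandas 2.3.3 and matplotlib 3.10.9 were used.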

Additional observations from a re-analysis of the deposited data

How the results depend on the processing

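Each group had 1 library, and depth limits single bins: at a mean of 0.52 reads per bin on chromosome 18 most bins of the library labelled H2ABbd are at 0, and single bins of 6 reads carry wide intervals. No paired analysis was possible because each group has 1 library. Over 319 values under 21 settings, 233 stayed within the interval (or 1.5 times the count) of the value reported, 78 moved and 8 changed direction. Some of the 233 could not change, such as the ratio of the libraries with means over all bins, so their number overstates stability. Alpha had more enriched bins of the library labelled H2ABbd than beta and gamma under all 13 settings that gave such counts (alpha 10 to 30 kb, beta 2 to 10, gamma 1 to 10). Thresholds of 2 and 8 times the mean could not change these calls, since the lowest count called, 6 reads, already lay at 11.5-fold. The ratios of alpha to beta and gamma stayed above 1 with their intervals in 16 of 18 values. The exceptions were 0.788 and 0.807 with enriched bins left out.

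Where the library labelled 5mC was thinned to the depth of the other, fewer bins held a read in either library. The ratios to the flanks then became 1.37 (window), 2.17 (alpha) and 1.18 (beta) for the library labelled H2ABbd and 0.982, 0.935, 0.984 and 1.19 (gamma) for the library labelled 5mC, where the intervals of window, alpha and beta then included 1. That library then had 0 enriched bins in the window, 0 of them shared, and the correlation turned to -0.351 (flanks -0.418). Means over all bins, empty ones included, gave 0.777 for the window and 0.734 for beta in the library labelled 5mC, 37 enriched bins of it and 16 shared. Flanks of 2 Mb gave 1.30 and 1.87 for the window and alpha in the library labelled H2ABbd, and 0.89, 0.842, 0.873 and 1.16 for the window, alpha, beta and gamma in the other. Leaving out enriched bins, a setting chosen after seeing the data, gave 0.856 and 0.763 for the window and alpha in the library labelled H2ABbd, and 0.787 and 0.753 for the window and beta in the other. With all reads kept, the ratio of the libraries was 0.68 in the window, 1.05 in alpha, 0.583 in beta and 0.507 in gamma, and 41 bins were enriched in the library labelled H2ABbd.

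Enriched DNA of the window came to 16 kb (H2ABbd), 5.5 kb (5mC) and 2.5 kb (both) in 500 bp bins, and to 50 and 10 kb in 2 kb bins. At 8 times the mean or more the library labelled 5mC had 1 bin, which was shared, and at an adjusted tail of 1e-05 the counts were 14, 4 and 1. The correlation was 0.18 in 500 bp bins (flanks -0.0118), 0.385 in 2 kb bins, 0.176 with a pseudocount of 0.01 and 0.458 with 1. The counts of the library labelled 5mC in alpha (0 to 12 kb), beta (0 to 11) and gamma (0 to 12) thus depend on the threshold. The cause of these moves was not tested.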

Other observations

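The strands of the library labelled H2ABbd were unevenly used between the clusters. In the spacers and margins 75.0% of its 96 distinct reads were on the plus strand (65.1 to 83.3%), with 84.2% of 19 in the alpha-beta spacer (60.4 to 96.6%) and 72.1% of 68 in the beta-gamma spacer (59.9 to 82.3%). In alpha the share was 44.9% (39.1 to 50.9%), in beta 58.8% (51.1 to 66.1%), in gamma 52.5% (43.9 to 60.9%), in the flanks 52.1% (49.5 to 54.7%) and on chromosome 18 as a whole 55.5%. The library labelled 5mC stayed between 50.2 and 55.0% in the clusters and both spacers.

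Few bins were covered by the sparser library alone. Counted here are the 852 bins of the window with a read in either library. In 22 of them the library labelled 5mC had no read, and the library labelled H2ABbd had at most 2 there, at 37232001 in alpha and 37624001 in beta. In 553 of the 852 the library labelled H2ABbd had none. Among those, 37409001 in the alpha-beta spacer and 37942001 in gamma had 13 reads of the library labelled 5mC, just under its lowest count called. By the rule that a count of 0 allows up to 3 reads, such a bin of the library labelled H2ABbd could stand at up to 5.77 times the chromosome mean, so these bins do not show absence.

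The windows with no read of the library labelled H2ABbd were 37370001 to 37380000 in the alpha-beta spacer and 37470001 to 37480000 in beta, with 21 and 24 reads of the library labelled 5mC. The lowest count of the library labelled 5mC was 13, at 37280001, 37290001 and 37360001.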
